A study of Mus musculus with 2 samples.

Results

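The respiratory chain genes were all genes of the deposited gene list whose symbol begins as a subunit of 1 of the 5 complexes of oxidative phosphorylation does (mt-Nd, mt-Co, mt-Cytb and mt-Atp for the genes of the mitochondrial DNA, and Nduf, Sdh, Uqcr, Cox and Atp5 for those of the nucleus). The rule found 97 of 31053 genes, 13 mitochondrial and 84 nuclear, and used no measured value. The nuclear genes comprise 37 of complex I, 4 of complex II, 8 of complex III, 18 of complex IV and 17 of complex V, and the mitochondrial ones 7 of complex I, 1 of complex III, 3 of complex IV and 2 of complex V. Complexes were assigned by symbol, so Ndufa4 and Ndufa4l2 count under complex I. The symbol Atp5o stands for 2 gene identifiers, so that the 97 genes have 96 symbols. Of the members, 2 had no UMI in either library (Cox8c and the second identifier of Atp5o) and another 3 had fewer than 50 UMIs in each (Cox7b2, Cox6a2 and Cox8b).

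Complexes I to IV pass electrons from NADH and succinate to oxygen and pump protons across the inner mitochondrial membrane, except complex II, which pumps none, and complex V uses the proton gradient to make ATP. Complexes I, III, IV and V are built from subunits of both genomes, whereas complex II is wholly nuclear. In the adult eye, the retinal pigment epithelium (RPE), a pigmented cell layer behind the retina, is known for abundant mitochondria and for relying on oxidative metabolism, and it leaves much of the glucose to the photoreceptors.

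Eye cups of mouse embryos were measured at e13.5 by droplet sequencing on the 10x Genomics platform, which reads the 3′ end of polyadenylated transcripts and counts them by unique molecular identifiers (UMIs). Control embryos were Myrf fl/fl, and mutant embryos were Rx>cre Myrf fl/fl, so that both carried the floxed Myrf allele and only the mutants carried Cre. Cre is driven by Rx in the early eye field, from which the neural retina and the RPE arise, and the mesenchymal, vascular and blood cells of the preparation do not come from that lineage. Cornea, lens and optic nerve had been dissected away, and 3 eye cups per genotype were pooled into 1 library, so each genotype is 1 library without a replicate. No test across embryos was therefore possible, and the 95% intervals (exact Poisson for a UMI sum, Clopper-Pearson for a share, conditional binomial for a ratio) cover counting error only. Each value below compares these 2 libraries, not the genotypes at large.

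The libraries held 6039 control and 6754 mutant barcodes, of which 6034 and 6745 had at least 200 genes, with 63483835 and 75228861 UMIs in all and medians of 10093 and 10663 UMIs per kept barcode. Clustering gave 30 clusters, of which 24 were named X-like after fixed marker lists, in 13 classes. A cluster of 136 control and 151 mutant cells whose leading genes held a pericyte marker and none of its own class was set apart. The 5 unnamed clusters held 1078 and 879 barcodes at medians of 856.5 and 881 UMIs per barcode, and their mitochondrial share of UMIs was 12.1% and 10.8%. Myrf, the targeted gene, had 162 UMIs in control and 33 in mutant RPE-like cells, or 75.6 and 21.9 CPM (UMIs of a gene per 1000000 UMIs of the class). Over all barcodes it had 260 and 116 UMIs, 4.10 and 1.54 CPM. A 3′ count may lie outside the deleted part of the gene, so this is a check on the labels only in part.

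RPE-like cells, a single cluster, were 273 control and 160 mutant cells of a median depth of 2969 and 3170 UMIs. Of the 12 RPE markers, 10 were detected in each library, and their summed level was 11845 CPM in control and 8449 CPM in mutant cells. Rgr and Rpe65 were at 0 in both. Among markers of other cells in the RPE-like cluster, neurogenic retinal precursor genes summed to 266 CPM in control and 552 CPM in mutant cells (8 and 9 of 10 detected), red blood cell genes to 963 and 1405 CPM (8 of 9 in both), and melanocyte genes, several of which the RPE shares, to 9323 and 7310 CPM (8 and 7 of 9). Retinal progenitor markers summed to 1201 and 934 CPM (10 of 10 in both), ganglion markers to 291 and 147 CPM (11 and 10 of 11) and surface ectoderm markers to 2158 and 1556 CPM (7 and 6 of 9). The part of such cells or of free RNA in the values below was not tested.

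In every class except red blood cells, the members took up a similar and sizeable part of the transcriptome. As class sums, RPE-like cells had the highest share for both sets in the control library. The mitochondrial set made up 6.0% of the UMIs of control RPE-like cells (95% interval 5.97 to 6.03%; 128493 UMIs) and 5.28% in the mutant library (5.24 to 5.31%; 79476 UMIs). The next highest values were 4.58% in control amacrine or horizontal-like cells and 5.09% in mutant Schwann or neural crest-like cells. By the median over cells, mutant Schwann or neural crest-like cells (5.03%) were above mutant RPE-like cells (4.88%). Retinal progenitor-like cells, the dividing cells of the neural retina, had 4.13% in control and 4.08% in mutant cells, ganglion-like cells 4.08% and 4.09%, and neurogenic retinal precursor-like cells 3.87% and 3.89%. These 3 neural classes thus lay close to each other as sums, but single clusters spread more widely. Progenitor-like clusters ranged from 3.24% to 7.21% in control and from 3.23% to 7.18% in mutant cells. The lowest had medians of 19642 and 17290 UMIs, and the highest 3957.5 and 4294. Ganglion-like cells had 6.27% and 5.37% in the shallow cluster (1351 and 1602 UMIs) and 3.68% and 3.81% in the deep one. Both shallow clusters named here were above the RPE-like values. The lowest class sum outside blood was the 3.52% of control macrophage-like cells.

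For the nuclear set, RPE-like cells had 4.15% in control (4.13 to 4.18%; 88962 UMIs) and 4.09% in mutant cells (4.06 to 4.12%; 61597 UMIs). Melanocyte-like cells, the other pigment cells of the preparation, followed as a sum with 4.02% in both libraries. Surface ectoderm-like cells had 3.85% and 4.14%, the latter above the mutant RPE-like value. By the median over cells, melanocyte-like cells (4.01% and 4.05%) were above RPE-like cells (3.89% and 3.95%) in both libraries. The lowest shares outside blood were 3.13% in control amacrine or horizontal-like cells and 3.10% in mutant retinal progenitor-like cells. Red blood cell-like cells had 0.558% and 0.710% for the nuclear and 0.537% and 0.569% for the mitochondrial set. Haemoglobin genes took 84% and 81.1% of the UMIs of that class, and without haemoglobin, mitochondrial and ribosomal protein genes in the total, its nuclear share was 4.86% and 5.44%, within the range of the other classes.

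**Figure D1:**
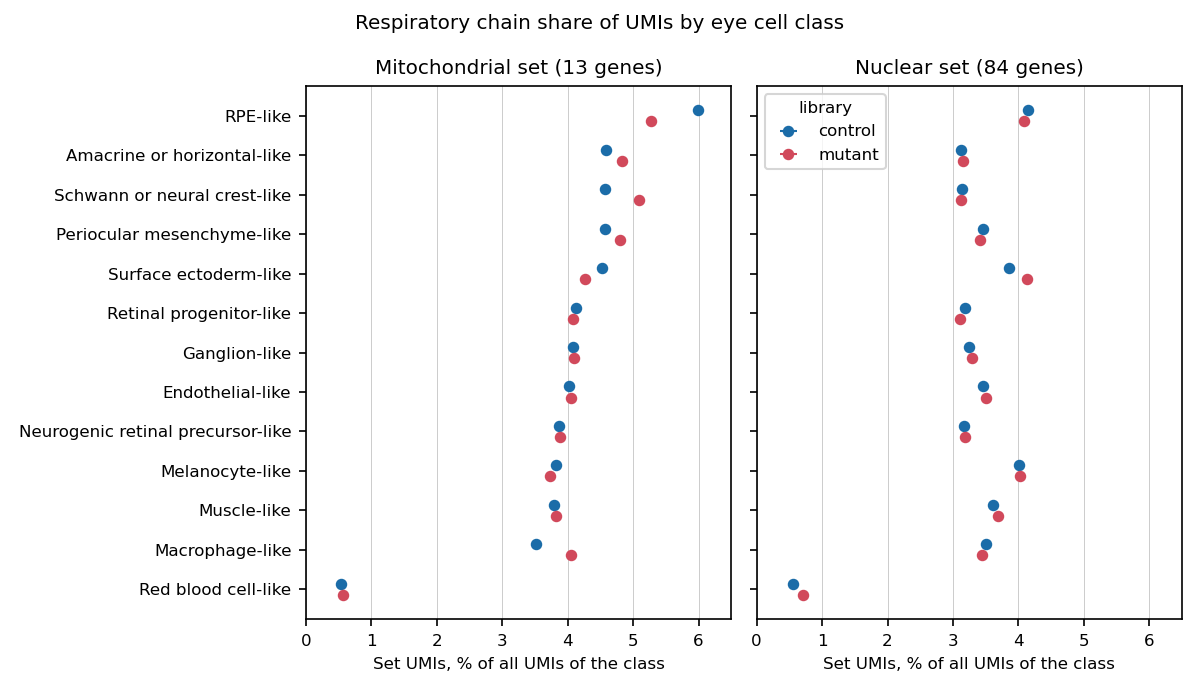
Share of all UMIs of a class (x axis, %) taken by the 13 mitochondrial genes (left) and the 84 nuclear genes (right) in 13 eye cell classes (y axis), with control in blue and mutant in red; bars are 95% Clopper-Pearson intervals for counting error, mostly narrower than the points. As class sums, RPE-like cells stand highest for the mitochondrial set in both libraries, at 6.0% and 5.28%. Red blood cell-like cells stand lowest in both sets.

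The ratio of mitochondrial to nuclear members also differed between classes. RPE-like cells had 1.44 mitochondrial UMIs per nuclear member UMI in control and 1.29 in mutant cells, and melanocyte-like cells had 0.951 and 0.926, although their nuclear shares were close to those of the RPE. Schwann or neural crest-like cells had 1.46 and 1.63, and macrophage-like cells 1.00 and 1.18. Retinal progenitor-like cells were nearly level between the libraries, at 1.30 and 1.31. In the 5 unnamed clusters of shallow barcodes the ratio was 5.03 and 4.28.

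The comparison of RPE-like with retinal progenitor-like cells of the same library shows which members distinguish the pigmented from the neural derivative of the optic cup. It was made in each library on its own and describes clusters, whose cells were grouped by other genes: members were left out of the features for clustering, where 2 of the 2000 variable features were members. The nuclear set was higher in RPE-like cells by a log2 ratio of 0.38 in control and 0.40 in mutant cells, and the mitochondrial set by 0.54 and 0.37. For the mitochondrial set, however, the shallowest progenitor-like cluster (7.21% and 7.18%) was above RPE-like cells (6.0% and 5.28%). Of the 79 nuclear members with at least 50 UMIs over both classes, 71 in control and 70 in mutant cells were above 0, with medians of 0.38 and 0.41 against 0.14 and 0.10 for all genes. Past 1.5-fold, the threshold used throughout, 22 were higher and 3 lower in control RPE-like cells, where 29.7% of all 11030 genes were higher and 17.4% lower. In mutant cells 23 of 79 were higher and 2 lower, against 26.5% and 16.5% of 10749 genes. The share of members past the threshold upwards was thus close to that of all genes, and few members were past it downwards. Of the mitochondrial genes, all 13 were above 0 in both libraries, 8 in control and 4 in mutant cells past 1.5-fold.

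Beyond that common shift a few subunits had large differences of their own, in the same direction in both libraries. Cox4i2, an isoform of subunit 4 of cytochrome c oxidase (complex IV) that is known for induction at low oxygen, had 63.7 CPM in control and 92.3 CPM in mutant progenitor-like cells but 6 and 8 UMIs in RPE-like cells, 2.80 and 5.31 CPM, a log2 ratio of -4.29 (-5.96 to -3.38) and -3.95 (-5.33 to -3.14). Ndufa4l2, a paralogue of Ndufa4 likewise known for induction at low oxygen, had 31.1 and 41.4 CPM in progenitor-like and 4.20 and 2.66 CPM in RPE-like cells (9 and 4 UMIs), a ratio of -2.74 (-4.02 to -1.95) and -3.64 (-5.84 to -2.60). Cox5a, an all-purpose nuclear subunit of complex IV, was at 622 and 601 CPM in progenitor-like and 383 and 412 CPM in RPE-like cells (-0.70 and -0.54). These were the 3 members past 1.5-fold downwards in control cells, and in mutant cells Cox5a was not past it.

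In the other direction, Ndufb4, an accessory subunit of the membrane arm of complex I, had 223 and 207 CPM in progenitor-like and 695 and 518 CPM in RPE-like cells, log2 ratios of 1.64 (1.55 to 1.72) and 1.33 (1.21 to 1.44). Cox6b2, a form of subunit 6b of complex IV, was at 27.9 and 24.8 CPM in progenitor-like against 55.1 and 86.3 CPM in RPE-like cells. Its ratios were 0.99 (0.68 to 1.27) and 1.81 (1.51 to 2.09). The intervals of Ndufb4 and Cox6b2 do not overlap between the libraries, and nor do those of other members, among them Cox4i1, Uqcrh and Atp5o. How many of all genes have such intervals was not counted. Ndufv3, a small accessory subunit of the NADH-oxidising arm, was at 243 and 233 CPM against 482 and 456 CPM (0.99 and 0.97). Cox8a, the general form of subunit 8, was at 1140 and 1076 CPM against 2016 and 1869 CPM (0.82 and 0.80), and Cox4i1, the general form of subunit 4, at 661 and 712 CPM against 1071 and 1041 CPM (0.70 and 0.55). The general and the inducible form of subunit 4 thus differed in opposite directions between these classes. Cox7a1, the form of subunit 7a known from heart and muscle, had the highest control ratio of the nuclear members with at least 50 UMIs over both classes. Its ratios were 1.81 (0.97 to 2.51) and 1.66 (0.58 to 2.46), on 21 and 13 UMIs in RPE-like cells.

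**Figure D2:**
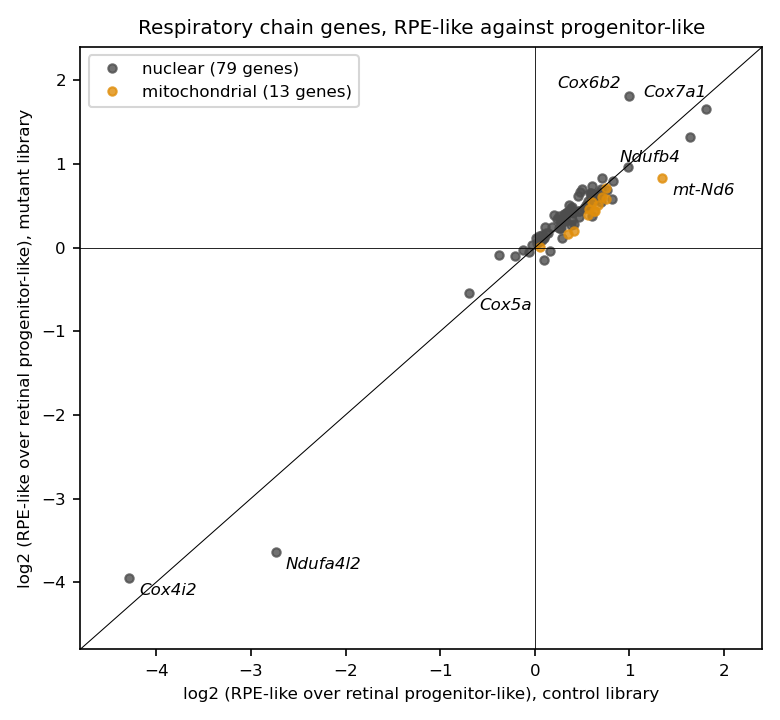
Log2 ratio of RPE-like over retinal progenitor-like CPM for each member in the control library (x axis) and in the mutant library (y axis), with nuclear genes in grey and mitochondrial genes in orange; the diagonal marks equal ratios. Most members lie between 0 and 1 near the diagonal, Cox4i2 and Ndufa4l2 lie far below 0 in both libraries, and Ndufb4 at 1.64 and 1.33 and Cox6b2 at 0.99 and 1.81 lie off the main group.

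RPE-like cells were the class of highest level for 29 of the 79 nuclear members in control and 20 in mutant cells, more than any other class in either library, followed by melanocyte-like cells with 13 and 18 and surface ectoderm-like cells with 10 and 18. Of the 13 mitochondrial genes, 12 in control and 9 in mutant cells had their highest level in RPE-like cells. These counts take the highest value whatever its margin, so neighbouring classes often differ by less than their counting error. How many of all genes have their highest level in RPE-like cells was not counted, so no share stands beside these counts.

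In mutant RPE-like cells, most mitochondrial genes had a lower share than in control cells while the nuclear set was nearly level. The mitochondrial set was at 6.0% in control and 5.28% in mutant cells, a log2 ratio of mutant over control of -0.18 (-0.20 to -0.17), that is a fold of 0.880. By summed UMIs this was the lowest of the 13 classes: the other 12 ranged from -0.084 in surface ectoderm-like to 0.20 in macrophage-like cells, 3 below and 9 above 0. As means over cells, RPE-like cells had 6.89% and 6.15%. As ratios, surface ectoderm-like (7.60% and 5.13%), muscle-like (5.23% and 3.87%), red blood cell-like (1.44% and 1.12%) and ganglion-like cells (6.29% and 5.54%) then differed more. Retinal progenitor-like, neurogenic retinal precursor-like, melanocyte-like and endothelial-like cells were also lower in the mutant library, by less. Higher there were macrophage-like (3.47% and 4.25%), Schwann or neural crest-like, periocular mesenchyme-like and, by little, amacrine or horizontal-like cells. By summed UMIs, the unnamed clusters together were at -0.17. Among them, the largest (11.6% and 12.0%) and that of highest share (26.7% and 29.6%) were higher in the mutant library, and another was lower (2.88% and 2.44%). The nuclear set was at 4.15% and 4.09%, a ratio of -0.022 (-0.036 to -0.0067), the third lowest, where the others ranged from -0.039 in retinal progenitor-like to 0.35 in red blood cell-like cells. All genes of RPE-like cells had a median ratio of -0.028, so the nuclear set was close to it. The mitochondrial difference is small and tied to the choice of cells: among cells of at most 5% mitochondrial UMIs the ratio was 0.0085, a limit that acts on the measured share itself. At most 20000 UMIs per cell it was -0.11, and at most 2000 UMIs -0.32.

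Within the RPE-like cluster the mitochondrial share depended on depth, and the mutant value was the lower in each of 5 ranges of UMIs per cell. Cells of up to 1000 UMIs had 5.85% in control and 5.18% in mutant cells (64 and 31 cells), those of 1000 to 2000 UMIs 9.91% and 7.29% (54 and 36), and those of 2000 to 5000 UMIs 8.59% and 7.31% (31 and 21). In the deeper cells the values were 5.92% and 5.54% at 5000 to 20000 UMIs (107 and 45 cells) and 5.10% and 4.72% above 20000 UMIs (17 and 27 cells). The control library thus had fewer of its RPE-like cells in the deepest range. The nuclear share had no such common direction: it was the higher in mutant cells in the 3 shallow ranges (3.27% against 3.65% up to 1000 UMIs) and the lower in both deep ones (4.27% against 4.10% above 20000 UMIs). Cells with over 15% mitochondrial UMIs, the limit of the study's own filter, were 19 of 273 (6.96%, 4.24 to 10.7%) in control and 8 of 160 (5.00%, 2.18 to 9.61%) in mutant RPE-like cells.

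By complex, the mitochondrial members of each of the 4 complexes that hold any were lower in mutant RPE-like cells, with ratios of -0.12 for complex I, -0.26 for complex III, -0.16 for complex IV and -0.23 for complex V. Their nuclear partners were at -0.042 for complex I, -0.074 for complex III, -0.0047 (-0.036 to 0.026) for complex IV and 0.015 (-0.012 to 0.043) for complex V. Partners were assigned by symbol, with Ndufa4 under complex I. Complex II, wholly nuclear, was at -0.12 (-0.24 to 0.0047). The subunits of the 2 genomes in 1 complex were therefore not lower by the same amount in this library pair.

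Mitochondrial genes are transcribed as long precursors from both strands and cut into single RNAs, and all but mt-Nd6 lie on 1 strand. Of the complex I subunits among them, mt-Nd1 had 3406 UMIs in control and 2230 in mutant RPE-like cells (log2 ratio -0.10), mt-Nd2 5568 and 3625 (-0.11), and mt-Nd4 6869 and 4419 (-0.13). Further, mt-Nd4l had 2212 and 1401 UMIs (-0.15) and mt-Nd5 1140 and 666 (-0.27). The exception was mt-Nd3, with 1626 and 1168 UMIs and a ratio of 0.032 (-0.078 to 0.14), the single mitochondrial gene above 0. Before any scaling all these sums are lower in the mutant library because it holds fewer RPE-like cells, and the ratios set them against the class totals. mt-Nd6, read from the other strand, had 213 and 105 UMIs and the lowest ratio, -0.50 (-0.86 to -0.17).

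mt-Cytb, the haem-bearing core of complex III, had 23373 UMIs in control and 13708 in mutant RPE-like cells (-0.26, -0.29 to -0.23). The catalytic subunits of complex IV differed among themselves: mt-Co1, which binds the site of oxygen reduction, had 12148 and 6832 UMIs (-0.32), mt-Co2, which accepts electrons from cytochrome c, 21699 and 13369 (-0.19), and mt-Co3 22297 and 15228 (-0.041, -0.071 to -0.012). For complex V, mt-Atp6, the proton channel subunit, had 26909 and 16182 UMIs (-0.22) and mt-Atp8, a short subunit beside it, 1033 and 543 (-0.42, -0.57 to -0.27). No mitochondrial gene was past 1.5-fold in RPE-like cells, and the intervals of 12 of the 13 lay below 0. The share of all genes with such intervals was not counted. Most of these sums are large, so that even a small ratio such as that of mt-Co3 has an interval clear of 0.

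Some mitochondrial genes kept their side of the set's ratio in nearly all classes and others did not. mt-Atp8 was below the set's own ratio in all 13 classes and below 0 in 12, from -0.42 in RPE-like cells to 0.037 in Schwann or neural crest-like cells. mt-Co3 was above the set's ratio in all 13 classes, by 0.097 to 0.19, and above 0 in all but RPE-like cells. mt-Nd3 was above 0 in all 13 and mt-Cytb below 0 in 10. By contrast, mt-Nd5 was below the set's ratio in 8 classes and above it in 5, mt-Nd6 in 7 and 6, and mt-Nd4 in 5 and 8. RPE-like cells were the class with the lowest ratio for 7 of the 13 genes (mt-Co1, mt-Co2, mt-Co3, mt-Atp6, mt-Atp8, mt-Nd5 and mt-Cytb), and surface ectoderm-like cells for the other 6. These counts take the lowest value whatever its margin. For mt-Atp8, RPE-like cells at -0.418 and ganglion-like cells at -0.413 did not differ beyond counting error. The unnamed clusters, with -0.63 for mt-Atp8 and -0.020 for mt-Co3 at a set ratio of -0.17, had these genes on the same sides of the set.

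**Figure D3:**
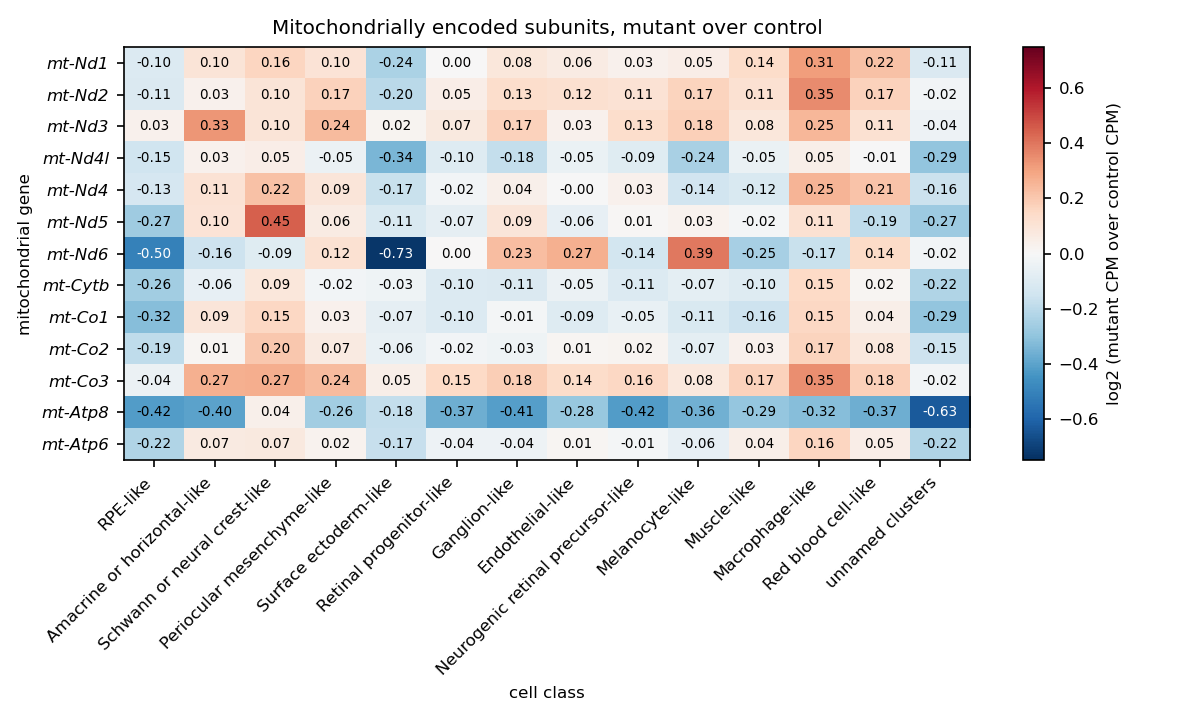
Log2 ratio of mutant over control CPM (colour and printed value) for the 13 mitochondrial genes (rows, by complex) in 13 named classes and the unnamed clusters (columns). The RPE-like column is blue except for mt-Nd3 at 0.032, the mt-Atp8 row is blue except in Schwann or neural crest-like cells, and the macrophage-like column is red for 11 of 13 genes.

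Neighbouring mitochondrial genes overlap on the mouse mitochondrial genome, which limits what can be said of the pair mt-Atp8 and mt-Atp6. In the GENCODE vM21 annotation of GRCm38 the 2 genes share 43 bases of the same strand (chrM:7927-7969), and their RNA is known to stay joined. mt-Atp6 and mt-Co3 share 1 base, mt-Nd4l and mt-Nd4 share 7, and mt-Nd5 and mt-Nd6, on opposite strands, share 14. Reads in a shared stretch, and reads that match copies of mitochondrial DNA in the nuclear chromosomes, cannot be assigned with certainty, and how they were counted is not given in the sources used here. The whole of mt-Atp8 is shown because its ratio was below that of the set in all 13 classes, with the 43 shared bases in capitals (chrM:7766-7969, + strand, GRCm38):
mt-Atp8: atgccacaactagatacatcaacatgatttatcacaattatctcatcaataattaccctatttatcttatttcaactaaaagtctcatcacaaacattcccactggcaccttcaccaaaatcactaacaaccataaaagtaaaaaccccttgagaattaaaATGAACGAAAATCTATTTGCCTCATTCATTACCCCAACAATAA

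Among nuclear members in RPE-like cells, 75 of the 84 had at least 50 UMIs over both libraries. Their median ratio of mutant over control was -0.016, with 45 below and 30 above 0, close to the median of -0.028 over all 7008 genes. Past 1.5-fold, 1 member was higher and 0 were lower, where 3.68% of all genes were higher and 7.26% lower. Counting intervals lay below 0 for 8 members and above 0 for 4, and the share of all genes with such intervals was not counted.

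**Figure D4:**
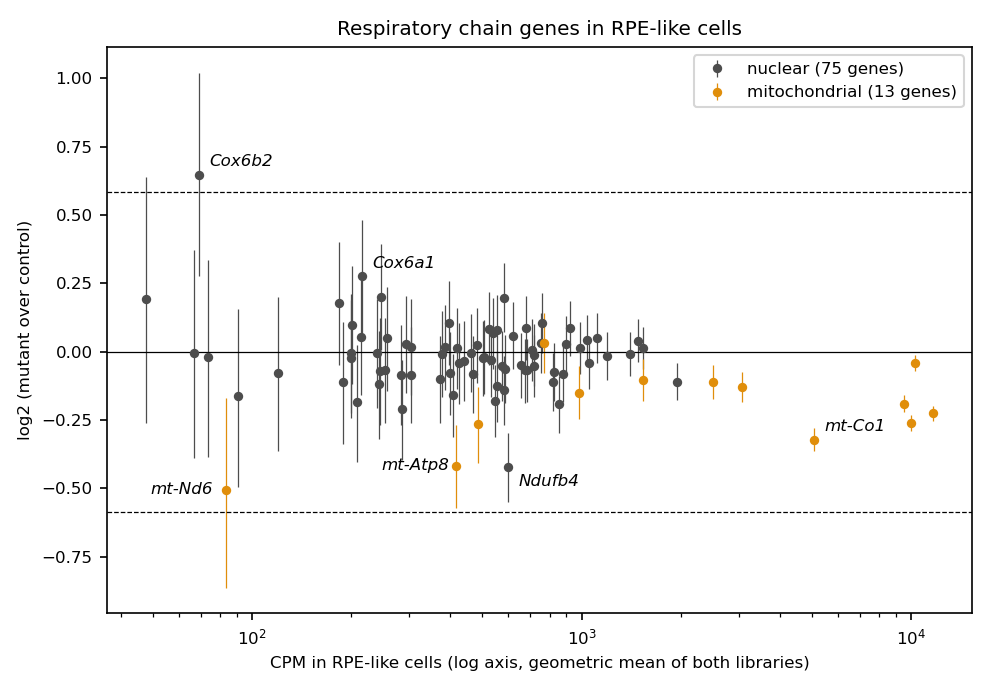
Level of each member in RPE-like cells (x axis, CPM, log scale, geometric mean of both libraries) against the log2 ratio of mutant over control (y axis), with 75 nuclear genes in grey and 13 mitochondrial genes in orange; bars are 95% counting intervals and dashed lines mark 1.5-fold. Nuclear genes scatter around 0 with Cox6b2 at 0.65 and Ndufb4 at -0.42 as the extremes, and 12 of the 13 mitochondrial genes lie below 0.

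Among nuclear members with at least 50 UMIs over both libraries, Ndufb4 (chr16:37647170-37654453, - strand) had the lowest ratio in RPE-like cells, -0.42 (-0.55 to -0.30). It had 1488 UMIs or 695 CPM in control and 780 UMIs or 518 CPM in mutant cells. This is the same complex I subunit that stood out as an RPE gene above, and its level stayed the highest of all classes in the mutant library. The ratio was 0.11 among cells of at most 2000 UMIs and between -0.45 and -0.33 under the other settings tried. Uqcrfs1, the iron-sulfur protein of complex III that passes electrons from ubiquinol, was at 308 and 266 CPM (-0.21), and Uqcrh, its hinge protein, at 912 and 798 CPM (-0.19). The membrane anchors of complex II, Sdhd at 223 and 196 CPM (-0.19) and Sdhc at 96.1 and 85.7 CPM (-0.16), had intervals that include 0. Ndufc2, an accessory subunit of complex I, was at 582 and 514 CPM (-0.18, -0.31 to -0.049).

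The highest ratio was that of Cox6b2 (chr7:4751792-4753094, - strand), the form of subunit 6b of complex IV that is best known from testis. It had 118 UMIs or 55.1 CPM in control and 130 UMIs or 86.3 CPM in mutant RPE-like cells, 0.65 (0.28 to 1.02), the 1 member past 1.5-fold. That call rested on the settings, since the ratio was 2.74 on 1 and 7 UMIs in cells of at most 2000 UMIs, ranged from 0.44 to 1.00 under the other settings tried, and the count of members past 1.5-fold was 0 with at least 1000 genes per barcode or with RPE-like cells chosen by a rule per cell. Next came Cox6a1, the general form of subunit 6a, at 196 and 238 CPM (0.28, 0.068 to 0.48), Ndufa6, an accessory subunit of complex I, at 230 and 264 CPM (0.20), and Atp5o, part of the peripheral stalk of complex V, at 541 and 621 CPM (0.20, 0.072 to 0.32). Ndufs1, the largest iron-sulfur subunit of complex I, at 44.8 and 51.1 CPM (0.19) and Ndufb6, an accessory subunit, at 173 and 195 CPM (0.18) had intervals that include 0.

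Subunits with more than 1 isoform showed the clearest differences between cell classes. Cox4i2 (chr2:152754173-152765037, + strand) had its highest level in retinal progenitor-like cells in both libraries, with 1259 UMIs in control and 1782 in mutant cells, 63.7 and 92.3 CPM, a ratio of 0.53 (0.43 to 0.64). The level was higher in the mutant library in each of the 5 progenitor-like clusters, at 54.1 and 82.6, 78.9 and 104, 58.4 and 103, 42.4 and 71.5, and 74.5 and 99.7 CPM. It was the highest ratio among 79 nuclear members of that class, of which 0 were past 1.5-fold in either direction, against 1.98% of all 11587 genes lower and 0.708% higher. The ratio was 0.38 among cells of at most 20000 UMIs, 1.74 (0.15 to 4.51) on 3 and 12 UMIs among those of at most 2000, and 0.51 to 0.56 under the other settings tried. Thinned to 2000 UMIs per cell, 191 of 1512 control (12.6%, 11.0 to 14.4%) and 263 of 1585 mutant progenitor-like cells (16.6%, 14.8 to 18.5%) had a Cox4i2 UMI, and unthinned 35.5% and 44.3%. In RPE-like cells, which serve as the background, these shares were 0 of 155 (an exact upper bound of 2.35%) and 2 of 93 after thinning, and 2.20% and 4.38% before.

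Among the other classes, Cox4i2 was at 20.8 and 26.1 CPM in neurogenic retinal precursor-like and at 2.97 and 5.53 CPM in ganglion-like cells, so its level was lower in each class on the path from progenitor to neuron. It was at 13.9 and 11.5 CPM in periocular mesenchyme-like cells and at 10.8 and 41.7 CPM in surface ectoderm-like cells, where it rests on 7 and 25 UMIs. The general form Cox4i1 was broad, from 652 CPM in control neurogenic precursor-like to 1071 CPM in control RPE-like cells outside blood, and from 675 to 1073 CPM in the mutant library. The range of Cox4i2 over the classes was thus far wider than that of Cox4i1.

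Ndufa4l2 (chr10:127514967-127517154, + strand) followed a similar pattern to Cox4i2 in the retina, with 615 and 800 UMIs in progenitor-like cells (31.1 and 41.4 CPM, 0.41), 17.6 and 24.3 CPM in neurogenic precursor-like cells (0.46, -0.017 to 0.96) and 11.3 and 16.4 CPM in ganglion-like cells (0.51, -0.031 to 1.11). Among nuclear members with at least 50 UMIs over both libraries, the ratio was the highest in the latter 2 classes, although both intervals include 0. In ganglion-like cells the difference lay in the shallower of the 2 clusters, with 9 and 38 UMIs, and not in the deeper one, with 33 and 39. Amacrine or horizontal-like cells had 27 and 11 UMIs, 39.1 and 14.3 CPM, and so the opposite direction on few counts. Periocular mesenchyme-like cells had 91 and 61 UMIs (4.54 and 2.43 CPM, -0.89, -1.39 to -0.42), mostly from 1 of 6 clusters with 68 and 27. Ndufa4 itself, by name a complex I gene whose protein is now placed in complex IV, was highest in RPE-like cells at 1409 and 1399 CPM and lowest outside blood in control retinal progenitor-like cells at 935 CPM and mutant macrophage-like cells at 906 CPM.

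Cox6b2 was most abundant in surface ectoderm-like cells of the control library, at 77.0 CPM on 50 UMIs, but at 30.04 CPM on 18 UMIs in the mutant library (-1.31, -2.22 to -0.55). It was level in periocular mesenchyme-like cells, with 48.9 CPM in both, and low in ganglion-like (9.45 and 8.93 CPM) and endothelial-like cells (5.51 and 4.32 CPM). In RPE-like cells thinned to 2000 UMIs, 16 of 155 control (10.3%) and 14 of 93 mutant cells (15.1%, 8.48 to 24.0%) had a UMI of it, against 1.5% and 1.6% of ganglion-like cells as background. Cox6b1, the general form, was at 888 and 905 CPM in RPE-like and between 685 and 1084 CPM in the other named classes outside blood. Cox7a1 was highest in macrophage-like cells, at 21.2 and 19.5 CPM on 38 and 35 UMIs, and next in RPE-like and amacrine or horizontal-like cells, at 9.80 and 8.63 and at 10.1 and 10.4 CPM, which do not differ beyond counting error.

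**Figure D5:**
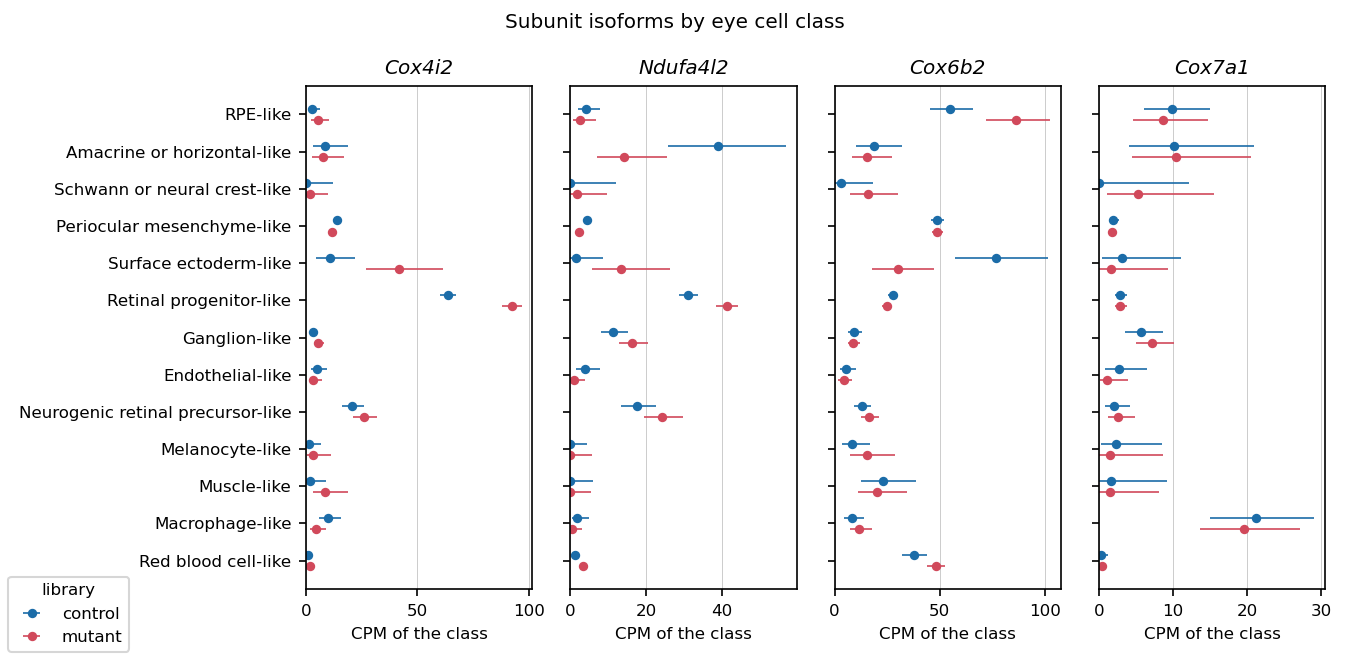
Level (x axes, CPM of the class) of 4 alternative subunit isoforms in 13 eye cell classes (y axis), control in blue and mutant in red, with 95% Poisson intervals for counting error. Cox4i2 is highest in retinal progenitor-like cells at 63.7 and 92.3 CPM, Ndufa4l2 in progenitor-like and control amacrine or horizontal-like cells, Cox6b2 in RPE-like and control surface ectoderm-like cells, and Cox7a1 in macrophage-like cells.

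The other isoform families were broad or nearly silent. Cox6a2, Cox8b and Cox7b2, known from heart and skeletal muscle or testis, had 8 and 8, 1 and 0, and 8 and 10 UMIs over all kept cells, and 5 and 3 of the Cox6a2 UMIs fell in muscle-like cells. Cox6a1 was highest in melanocyte-like cells at 452 and 430 CPM and lowest outside blood in control RPE-like cells at 196 CPM, so the pigment cells of separate origin held opposite ends of its range in the control library. Cox7a2, the general form of subunit 7a, was at 730 and 786 CPM in RPE-like cells and highest in control melanocyte-like (901 CPM) and mutant neurogenic precursor-like cells (845 CPM). Cox7a2l, which joins complexes III and IV into supercomplexes, was between 169 and 330 CPM outside blood, and Cox7b between 287 and 583 CPM. Cox8a was highest in control RPE-like cells at 2016 CPM and in mutant surface ectoderm-like cells at 1881 CPM, just above the 1869 CPM of the mutant RPE.

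The 3 genes for the same c-ring protein of complex V each had their own distribution. Atp5g1 was highest in muscle-like cells at 792 and 841 CPM, Atp5g3 in RPE-like cells at 612 and 555 CPM, and Atp5g2 was within 910 and 1324 CPM in all control classes outside blood, with ganglion-like cells lowest in both libraries. In RPE-like cells their ratios were 0.059, -0.016 and -0.14 for Atp5g1, Atp5g2 and Atp5g3. Of complex II, Sdha, the flavoprotein, was at 74.2 and 73.1 CPM and Sdhb, the iron-sulfur subunit, at 259 and 247 CPM in RPE-like cells, ratios of -0.019 and -0.067. Over the named classes outside blood Sdha lay between 43.7 and 74.5 CPM and Sdhb between 219 and 328 CPM.

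Across classes, 61 nuclear members could be ranked by the ratio of the highest to the lowest class. The 8 with the widest range were Ndufa8, Ndufb5, Cox5a, Atp5g2, Ndufc1, Ndufc2, Ndufb4 and Atp5g3, with log2 ranges from 5.42 to 4.4, all lowest in red blood cell-like cells. Left without that class, the median range of the 61 was 0.76. The widest was then that of Ndufa8 (chr2:36036326-36049406, - strand), an accessory subunit of complex I, at 592 and 590 CPM in endothelial-like and 125 and 147 CPM in neurogenic precursor-like cells (2.24 and 2.01). Ndufb4 was next, highest in RPE-like and lowest in neurogenic precursor-like cells (1.88 and 1.40), and Cox5a ranged from 881 and 1034 CPM in amacrine or horizontal-like to 383 and 412 CPM in RPE-like cells (1.20 and 1.33). Of the 84 nuclear members, 13 overlap another annotated gene on their own strand, among them Cox4i1, Ndufc2, Atp5g2 and both Atp5o identifiers, while Ndufa8, Ndufb4, Cox5a, Cox4i2, Ndufa4l2, Cox6b2, Cox6a1 and Cox7a1 do not. Many members also have processed copies elsewhere in the genome, and reads that match a copy cannot be assigned with certainty.

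Ganglion-like cells, the first neurons of the retina, were set against the progenitor-like cells that give rise to them to ask whether the members change as cells leave division. The nuclear set differed by 0.024 in control and 0.088 in mutant cells on the log2 scale, against 0.38 and 0.40 for RPE-like cells. Of 79 members, 1 was higher and 4 lower past 1.5-fold in control cells, against 25.3% and 22.6% of 11073 genes, and 1 higher and 3 lower in mutant cells, against 25.2% and 22.7% of 11057. None of the 13 mitochondrial genes was past it. Those past it in both were Cox4i2 (-4.30 and -4.01), Cox6b2 (-1.52 and -1.44), Ndufa4l2 (-1.42 and -1.32) and, upwards, Cox7a1 (1.02 and 1.33), and past it in control cells only was Ndufa1, an accessory subunit of complex I (-0.63, and -0.53 in mutant cells). The direction of the set was not firm, because with mitochondrial, haemoglobin and ribosomal protein genes out of the total it was -0.18 and -0.13.

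In the named classes outside the RPE and the retina other than red blood cells, at most 3 nuclear members a class were past 1.5-fold. Periocular mesenchyme-like cells had 1 of 79 nuclear members lower past 1.5-fold, Ndufa4l2, where 2.05% of all genes were lower and 1.05% higher. Its mitochondrial set was at 4.56% in control and 4.8% in mutant cells and was higher in the mutant library in 5 of 6 clusters. Schwann or neural crest-like cells had 1 of 73 higher, the supercomplex factor Cox7a2l (66 and 187 UMIs, 217 and 330 CPM, 0.59), where 6.69% of genes were lower and 4.12% higher. Surface ectoderm-like cells had 2 of 74 lower, Cox6b2 and Ndufs8, an iron-sulfur subunit of complex I (158 and 93 UMIs, -0.64), and 1 higher, Ndufa6 (111 and 155 UMIs, 0.59), where 6.43% were lower and 4.89% higher. In red blood cell-like cells the nuclear set was higher in the mutant library (0.35), with 74 of 75 members above 0, and 13 were higher past 1.5-fold, led by Ndufa8 (61 and 255 UMIs, 0.78), but 21.2% of all genes were higher there and 1.53% lower, and the median over all genes was 0.31 against 0.41 for the members.

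Among nuclear members with at least 50 UMIs over both libraries, the lowest and highest ratios in the remaining classes were within 1.5-fold. They were Atp5s, a coupling factor of complex V (-0.48), in neurogenic precursor-like cells, Sdhd (-0.22) in ganglion-like cells, Ndufs6 (-0.45) and Ndufs1 (0.43) in amacrine or horizontal-like cells, Sdhc (-0.40) and Ndufs3, a core subunit of complex I (0.35), in melanocyte-like cells, and Ndufs1 (-0.24) and Atp5o (0.40, 0.25 to 0.54) in endothelial-like cells. Macrophage-like cells had Ndufs8 (-0.40, -0.61 to -0.19) and Ndufs1 (0.22), and muscle-like cells Ndufa9 (-0.34) and Ndufs7, an iron-sulfur subunit of complex I (0.42, 0.11 to 0.74). In Schwann or neural crest-like cells the lowest was Ndufs7 (-0.54), in periocular mesenchyme-like cells the highest was Ndufa9 (0.18), in red blood cell-like cells the lowest was Sdhd (-0.16) and in progenitor-like cells Cox6b2 (-0.17). The same subunits recurred in opposite directions in different classes, and several rest on few UMIs.

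The genes around the chain in RPE-like cells were counted by the same rule as the members, against the same 7.26% of all genes lower and 3.68% higher. Of 41 assembly factors with at least 50 UMIs, which build the complexes but are not part of them, 1 was lower (Nubpl, an iron-sulfur carrier for complex I, 57 and 24 UMIs, -0.71, -1.49 to -0.028) and 0 higher past 1.5-fold, with a median of -0.0014. Of 16 enzymes of the citric acid cycle, which feeds the chain with NADH and succinate, 0 were past it in either direction, and their median was -0.10; the highest was Fh1, fumarase, at 80.3 and 108 CPM (0.42). Of 6 carriers outside the complexes, 2 were lower, Etfdh (42 and 18 UMIs, -0.67, -1.6 to 0.11) and Dhodh (40 and 15 UMIs, -0.85, -1.87 to -0.019), which both hand electrons to ubiquinone, and Cycs, cytochrome c, was at 239 and 293 CPM (0.29, 0.10 to 0.48).

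Among regulators of mitochondrial genes, 9 of 20 had enough UMIs, with 2 lower and 2 higher past 1.5-fold, where 7.26% of all genes were lower and 3.68% higher. Ppargc1a, a coactivator of mitochondrial biogenesis, had 51 and 22 UMIs (-0.67, -1.5 to 0.043) and Gabpa, an ETS factor of many nuclear members, 43 and 18 (-0.70, -1.63 to 0.077). Nrf1, another such factor, had 37 and 47 UMIs (0.85, 0.20 to 1.52), and Tefm, the elongation factor of mitochondrial transcription, 22 and 30 (0.94, 0.11 to 1.82). Tfam, which packs and transcribes mitochondrial DNA, was at 49.0 and 63.1 CPM (0.37, -0.051 to 0.78). These sums are small, and 3 of these 5 intervals include 0.

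Promoters of 4 members are shown because nuclear members are known to share binding motifs of a few factors. RefSeq windows of 250 bases before to 50 after the start (GRCm38.p6) were at hand for 68 of the 83 nuclear symbols, as 73 promoters. Cox4i2, Ndufa4l2 and Cox4i1 had none, so they are in none of the shares. The motif GCGCATGCG of NRF1 was in 11.0% of them, against 1.75% of all 32817 promoters and 3.33% of the 14221 of genes with at least 50 UMIs. The ETS motif CCGGAAG was in 21.9%, 8.86% and 15.9%, and AAGATGGC of YY1 in 13.7%, 2.74% and 4.02%. Of the hypoxia core motifs, ACGTG was in 26.0%, 19.6% and 24.6% and GCGTG in 53.4%, 32.4% and 48.9%. All were searched on both strands, and a match is a description of letters only. Their median GC content was 57.3% against 60.7% for genes with at least 50 UMIs.

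The 4 promoters shown belong to the nuclear members of highest and lowest mutant over control ratio in RPE-like cells (Cox6b2 and Ndufb4), the next highest (Cox6a1), and the general form beside Cox6b2 (Cox6b1), with every match to the 5 motifs in capitals. Ratios were ranked among nuclear members with at least 50 UMIs. Cox6a1 (chr5:115348909-115349208, - strand) holds the NRF1 motif from base -162 on its own strand, overlapping a match on the other strand, and the ETS motif from -16, counted from the start site. Cox6b1 (chr7:30626065-30626364, - strand) holds the ETS motif from -28 and GCGTG from -111 and -88, and Ndufb4 (chr16:37654319-37654618, - strand) GCGTG from -188 and -163. Cox6b2 (chr7:4753045-4753344, - strand) holds none of the 5 in this window and so has no capitals.
Cox6a1: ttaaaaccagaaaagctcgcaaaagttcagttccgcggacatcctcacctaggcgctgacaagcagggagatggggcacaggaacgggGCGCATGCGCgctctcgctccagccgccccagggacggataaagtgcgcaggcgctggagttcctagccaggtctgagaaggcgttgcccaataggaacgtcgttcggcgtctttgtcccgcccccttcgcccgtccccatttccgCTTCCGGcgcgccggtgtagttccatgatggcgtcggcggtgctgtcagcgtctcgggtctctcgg
Cox6b1: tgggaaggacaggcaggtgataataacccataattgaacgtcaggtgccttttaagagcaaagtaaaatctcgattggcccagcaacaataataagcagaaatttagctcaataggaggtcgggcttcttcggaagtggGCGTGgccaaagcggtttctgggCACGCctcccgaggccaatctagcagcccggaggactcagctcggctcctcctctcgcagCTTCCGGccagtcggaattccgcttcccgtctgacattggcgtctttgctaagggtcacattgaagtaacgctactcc
Ndufb4: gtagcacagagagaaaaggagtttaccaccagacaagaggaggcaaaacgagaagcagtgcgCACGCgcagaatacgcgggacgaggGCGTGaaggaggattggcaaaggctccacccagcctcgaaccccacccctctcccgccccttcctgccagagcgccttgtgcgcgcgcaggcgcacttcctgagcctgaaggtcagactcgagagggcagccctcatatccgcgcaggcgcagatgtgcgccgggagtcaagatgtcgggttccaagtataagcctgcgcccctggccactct
Cox6b2: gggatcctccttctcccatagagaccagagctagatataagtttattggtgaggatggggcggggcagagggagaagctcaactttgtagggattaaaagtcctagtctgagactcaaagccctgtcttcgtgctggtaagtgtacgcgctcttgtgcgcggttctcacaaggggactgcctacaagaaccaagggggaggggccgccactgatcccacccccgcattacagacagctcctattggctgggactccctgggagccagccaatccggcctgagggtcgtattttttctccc

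Among single cells, the medians of the mitochondrial share had the same order as the sums and those of the nuclear share the opposite one. The mitochondrial share had a median of 5.36% in control RPE-like cells, with quartiles of 4.15% and 7.11%, and of 4.88% in mutant cells (3.54% and 5.99%), so the quartile ranges overlapped widely. Over 5% mitochondrial UMIs were found in 166 of 273 control (60.8%, 54.7 to 66.6%) and 74 of 160 mutant RPE-like cells (46.3%, 38.3 to 54.3%). The nuclear share had medians of 3.89% and 3.95%, with quartiles of 3.37% and 4.33% and of 3.44% and 4.61%. Across RPE-like cells of a library the 2 shares had a Spearman rho of -0.26 in control and -0.28 in mutant cells (273 and 160 cells), and both are parts of the same total of UMIs. In retinal progenitor-like cells it was 0.12 and 0.22 over 1692 and 1749 cells, and in periocular mesenchyme-like cells -0.42 and -0.46 over 1413 and 1853 cells, so these weak relations had no common sign across classes.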

How the data were processed

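Eye cups at e13.5 were measured as 1 library of Myrf fl/fl (control) and 1 of Rx>cre Myrf fl/fl (mutant) cells, 3 pooled samples each. The authors deposited raw UMI counts per gene and called barcode, without normalization. The submitters' processing notes name Cell Ranger 7.1.0, Seurat 4.1.1 and mm10, and the matrix headers give software version 3.0.0. Whether intronic reads were counted is not given in the sources used here, and counts of intronic reads would raise genes with long introns. No column of per-sample values was left unused (0).

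Barcodes with at least 200 genes were kept, with no upper limit on UMIs or mitochondrial share. The study's own limits, 15% mitochondrial UMIs and 2000 UMIs, were run as alternatives. Scrublet in scanpy 1.11.5 at an expected 5% marked 60 control and 68 mutant barcodes (0.994% and 1.01%) as doublets, which were kept and left out in an alternative. Libraries were integrated and clustered in Seurat 5.3.0 under R 4.3.3 with 30 dimensions at resolution 0.8, on 1998 of 2000 variable features, without members. Clusters were named from fixed markers, by thresholds set after the clusters had been seen (a mean log2 fold of 0.4 and 3 markers above 0.5, with 5 CPM added). A cluster led by more markers of another class than of its own was set apart.

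UMIs were summed per class and library and given as CPM or percent of the class total (Python 3.11.15, scipy 1.17.1). Log2 ratios had 1 UMI added to each sum, and genes with at least 50 UMIs over both groups were counted past 1.5-fold. No test was possible on a single library per group. Intervals are exact, at 95%. The sums and intervals were tested on simulated Poisson counts. These hold counting error only, so they do not check the intervals against variation between cells or embryos. To compare shares of cells, cells were thinned to 2000 UMIs and those with fewer were left out, whereas unthinned shares are over all cells. Named were the mitochondrial genes, the isoform families and the Sdh genes, the 6 lowest and 6 highest nuclear ratios in RPE-like cells, 1 of each in other classes, and the 8 widest ranges over classes. The ratios of RPE-like over progenitor-like cells, the other members named past 1.5-fold and the promoters were chosen after values were seen. Members and lists were chosen with earlier results of these data known. The 72 barcode sequences found in both libraries (69 of them kept in both) were left out in an alternative added later.

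Alternatives were 1000 genes per barcode, 15% and 5% mitochondrial limits, 2000 and 20000 UMIs, doublets left out, means over cells, another total, resolutions of 0.4 and 1.6, no integration, members among the features, a rule per cell, and other UMI minima (10 and 200) and folds (1.25).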

Additional observations from a re-analysis of the deposited data

Results flagged for a closer look

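3 results had opposite directions in different cell classes, each as 1 library against 1, and in each case the difference was not tested. The mitochondrial set was lower in mutant than control RPE-like cells (6.0% and 5.28%, log2 ratio -0.18) and higher in macrophage-like cells (3.52% and 4.05%, 0.20), a difference of -0.39 between the classes. Cox6b2 was higher in mutant RPE-like cells (55.1 and 86.3 CPM, 0.65) and lower in surface ectoderm-like cells (77.0 and 30.04 CPM, -1.31), a difference of 1.96, with 18 UMIs in the mutant surface ectoderm-like cells. Ndufa4l2 was higher in mutant retinal progenitor-like cells (31.1 and 41.4 CPM, 0.41) and lower in amacrine or horizontal-like cells (39.1 and 14.3 CPM, -1.38), a difference of 1.79, with 27 and 11 UMIs in the latter.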

How the results depend on the processing

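The lower mitochondrial set in mutant RPE-like cells (-0.18) kept its direction except at 5% mitochondrial UMIs or less (0.0085), a limit that removes cells by the value measured. It was -0.16 with 1000 genes or more, -0.16 at 15% or less, -0.32 at 2000 UMIs or fewer, -0.11 at 20000 or fewer, -0.14 by a rule per cell, -0.16 as a mean over cells and -0.15 with mitochondrial, haemoglobin and ribosomal protein genes out of the total. It was -0.17 above 5000 UMIs, an alternative chosen after seeing the data, and -0.18 without the barcodes shared between the libraries, likewise. The nuclear set (-0.022) reversed at 2000 UMIs or fewer (0.17), at 5% or less (0.0050), as a mean over cells (0.077) and with the other total (0.0089), and was -0.044 above 5000 UMIs. The count of nuclear members higher past 1.5-fold (1) was 2 from 10 UMIs, 4 at 2000 UMIs or fewer, and 0 with 1000 genes, at 5% or less and by the rule per cell. The count lower (0) was 1 at 2000 UMIs or fewer and 1 at the lower fold. The cause was not tested.

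The nuclear set in ganglion-like over progenitor-like cells (0.024 in control, 0.088 in mutant cells) was 0.035 and 0.099 with 1000 genes, 0.035 and 0.098 at 15% or less, 0.037 and 0.012 at 2000 UMIs or fewer, 0.041 and 0.078 at 20000 or fewer, and 0.046 and 0.12 at 5% or less. It was 0.072 and 0.11 by the rule per cell, 0.043 and 0.11 at resolution 1.6, 0.065 and 0.11 in clusters of a median of 10000 UMIs or more (added after seeing the data), -0.047 and 0.0066 as a mean over cells, and -0.18 and -0.13 with the other total. RPE-like over progenitor-like ratios of both sets kept their direction under every setting run for them, at (control and mutant cells) 0.30 to 0.78 and 0.28 to 0.61 for the mitochondrial and 0.27 to 0.42 and 0.30 to 0.53 for the nuclear set. Ndufb4 in RPE-like cells reversed at 2000 UMIs or fewer (0.11), Cox4i2 in progenitor-like cells was 0.38 at 20000 UMIs or fewer and 1.74 on 3 and 12 UMIs at 2000 or fewer, and Cox6b2 in RPE-like cells reached 2.74 at 2000 UMIs or fewer.

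No paired analysis was possible because each genotype is 1 library. Embryos, litters, dissociation and library preparation cannot be told apart from genotype. RPE-like cells were few, and members of low counts there, such as Cox4i2, Ndufa4l2 and Cox7a1, have wide intervals.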
